A study of Mus musculus with 4 samples.

Results

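The clustered protocadherin genes were taken as every protein-coding gene of the mouse annotation GENCODE M21 (build mm10) on chromosome 18 whose symbol starts with Pcdha, Pcdhb or Pcdhg. The rule gave 57 of 21938 protein-coding genes: 14 in the alpha array, 22 in the beta array and 21 in the gamma array. All 57 lie on the plus strand between chr18:36930184-37841873. GENCODE gives the symbol Pcdha11 to 2 of them. The one nearest the RefSeq start of Pcdha10 is called Pcdha10 here. Pcdhgb8 is annotated as a polymorphic pseudogene and is not a member.

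Clustered protocadherins are cadherin-family adhesion proteins of the cell surface, best known from neurons, where each cell uses a small and partly random selection of them as an identity for self-recognition. Each variable exon has its own promoter and encodes the extracellular part, the membrane span and a first stretch inside the cell. Alpha and gamma variable exons are spliced to constant exons shared by the array, which encode the common intracellular end, while beta genes consist of a variable exon without such constant exons. The C-type genes at the end of the alpha and gamma arrays are regulated apart from the others and are expressed more uniformly among neurons. CTCF and cohesin are known to bind at the alternate promoters and to bring them to enhancers further downstream.

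The data were DNase-seq, in which open chromatin is cut by DNase I and the cut fragments are sequenced, from 3T3-L1, an immortalized mouse embryo fibroblast line able to turn into fat cells. The labels list the line as strain C57BL/6J, give no age, and name no treatment, genotype or differentiation step. There were 4 libraries, 2 technical replicates for each of 2 biosamples. The deposited peaks and hotspots (accessible stretches of varying width) came as 1 list of each kind per biosample. Nothing in the labels says whether the biosamples were separate cultures, and since each biosample has a single list, there is no replicate spread, standard error or test to give. A difference between the lists is therefore a difference between 2 files.

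The list of biosample 1 held 298793 peaks and that of biosample 2 held 97430, so any gene had more chance of a peak in the first. All peaks but 1 were windows of 150 bp with an undefined score of the authors, whose median was 65 in the first list and 33 in the second. Scores were therefore read as percentiles within each list, from 0 for the weakest to 100 for the strongest peak. Read depth was not analysed here. As a check of the label, promoter peaks in both lists were counted at cell type markers, beside 51.9% of all protein-coding genes. They were found at 8 of 9 fibroblast and preadipocyte markers. The exception was Dlk1, with a peak of score 90 in biosample 1 alone. The counts were 1 of 5 mature adipocyte markers, 3 of 8 neuronal markers and 1 of 4 blood markers. For epithelial markers the count was 0 of 3, and for endothelial markers 2 of 3. Neuronal Rbfox3, Snap25 and Gad1 were among the genes with a peak in both lists, at the 37.7, 35.4 and 25.9 percentile of biosample 2.

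A promoter peak was a peak that reached within 1000 bp of an annotated protein-coding start site. Of the 57 members, 17 (29.8%) had a promoter peak in both lists, beside 51.9% of all protein-coding genes. In the list of biosample 1 the count was 39 (68.4%, 95% Wilson interval 55.5 to 79.0%), beside 62.6%. In that of biosample 2 it was 17 (29.8%, 19.5 to 42.7%), beside 52%. No member had a peak in biosample 2 alone, which is near the background, since only 22 of 21938 protein-coding genes did. In biosample 1 alone it was 22 of 57 members, beside 2358 of 21938 genes. Another 18 members had none in either list, beside 37.3% of all genes. The share in the longer list was near the background and that in the shorter one below it. With only the stronger 50% of each list by score, the members in biosample 1 were 20 of 57, beside 56.2% of all genes, and so below the background there too. The members are neighbouring, sequence-related genes and not independent of each other.

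The arrays differed in these counts. Over all protein-coding genes the share was 62.6% in biosample 1 and 51.9% in both lists. Beta genes had a promoter peak in 20 of 22 cases (90.9%) in biosample 1 and in 10 of 22 (45.5%) in both lists. Gamma genes had one in 11 of 21 cases (52.4%) and in 6 (28.6%) in both. Alpha genes had one in 8 of 14 cases (57.1%), but Pcdha9 was the only alpha gene with a peak in both lists (7.14%). In biosample 1, gamma and alpha were near the share of all genes. Counting error alone is wide at these numbers: the 95% Wilson intervals of the shares in both lists were 1.27 to 31.5% for alpha, 26.9 to 65.3% for beta and 13.8 to 49.96% for gamma. The order of beta and gamma depended on the weaker peaks. Among the stronger 50% of each list, 2 of 22 beta, 4 of 21 gamma and 0 of 14 alpha genes had one in both. Over all protein-coding genes this share was 46.3%.

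**Figure D1:**
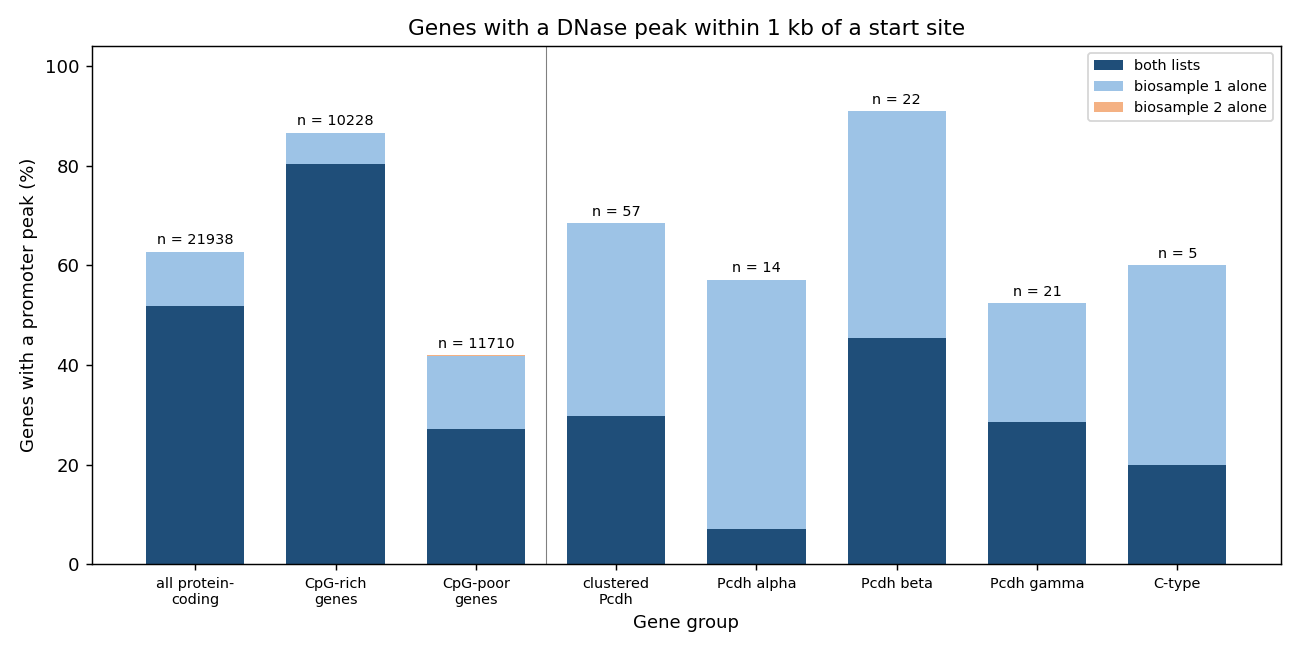
Share of genes in % (bar height) with a DNase peak within 1 kb of a start site, split into genes with a peak in both lists (dark), in biosample 1 alone (light) and in biosample 2 alone (orange, 22 genes of all protein-coding genes, too few to be visible). The 3 bars on the left are all, CpG-rich and CpG-poor protein-coding genes. The dark part reaches 7.14% in Pcdh alpha, 45.5% in Pcdh beta and 28.6% in Pcdh gamma, beside 51.9% of all genes.

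The peaks at member promoters were weaker than at most genes. The strongest promoter peak of the 39 members with one had a median percentile of 50.2 in biosample 1, beside 94.2 over all protein-coding genes with a peak. In biosample 2 the median of the 17 members was 33.1, beside 86.4. Within biosample 1 the medians were 18.9 for alpha, 55.1 for beta and 62.7 for gamma. In biosample 2 they were 23.5 for 10 beta genes and 55.6 for 6 gamma genes. These medians cover only the members with a peak, so they describe how strong a detected site was and not the array as a whole.

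**Figure D2:**
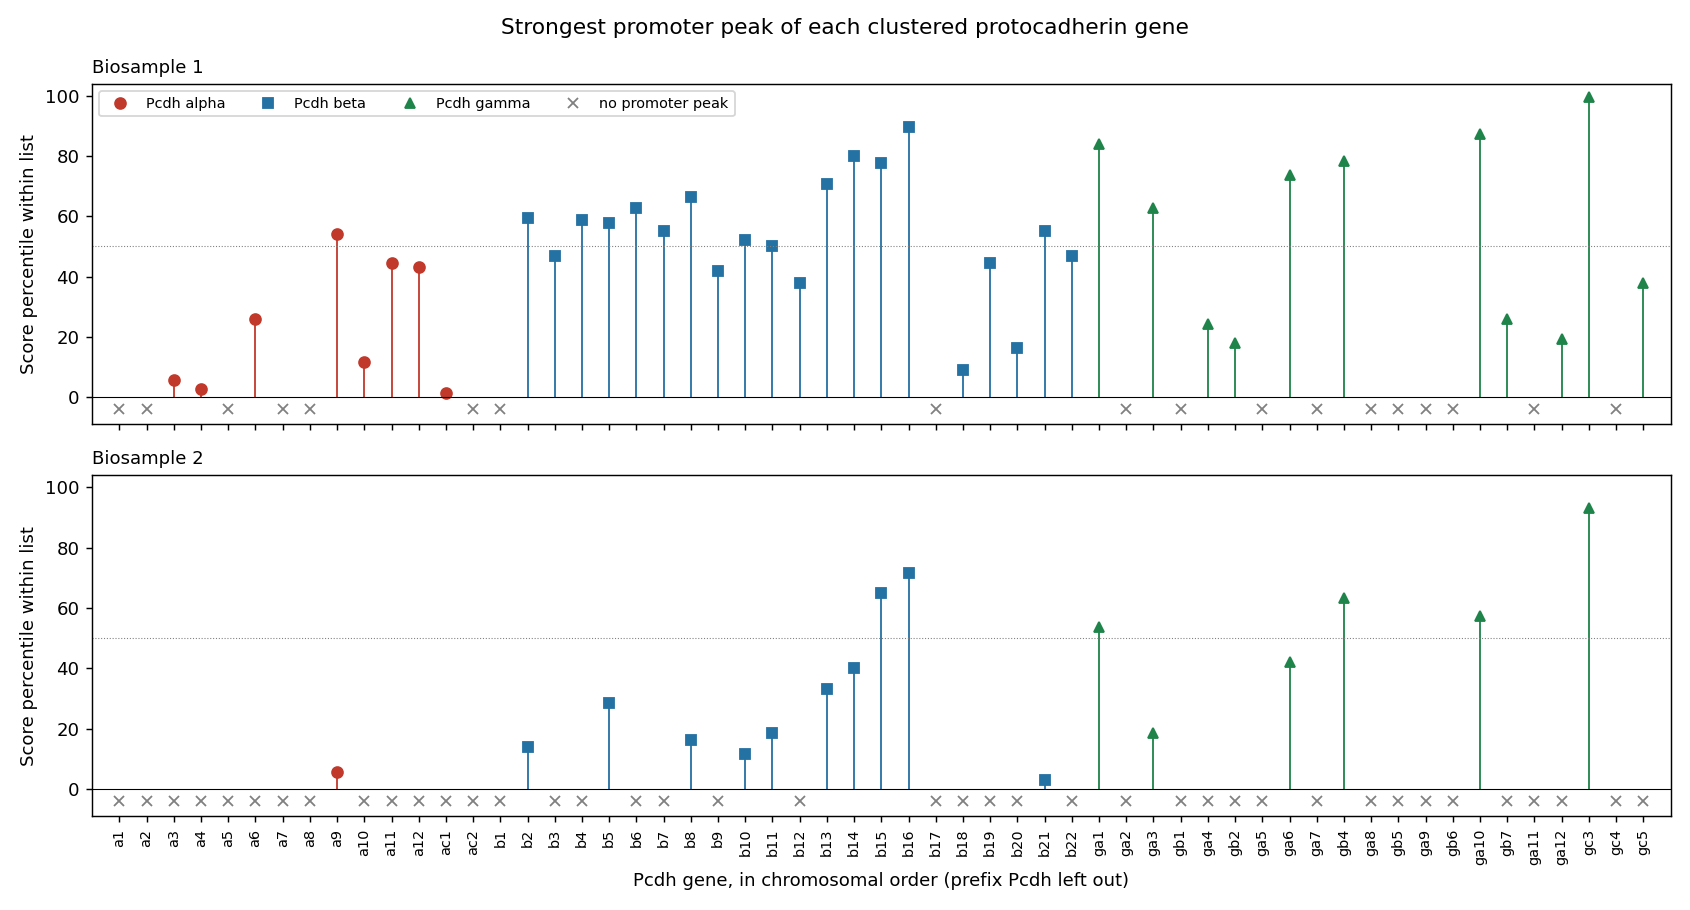
Score percentile within each list (vertical axis, 0 to 100) of the strongest promoter peak of all 57 genes in chromosomal order, biosample 1 above and biosample 2 below. Crosses under the axis mark genes without a promoter peak and the dotted line marks the middle of the list. Pcdhgc3 stands highest in both panels (99.5 and 93.0), and Pcdha9 is the only alpha gene present below. Pcdhb13 to Pcdhb16 form a run that is highest among the beta genes in both panels. In biosample 2, Pcdhb13 (33.1) and Pcdhb14 (39.9) still lie under the dotted line.

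Among the alpha genes, all of which encode isoforms that end in the same alpha constant region, Pcdha9 had scores of 69 (percentile 54.2) and 13 (percentile 5.57) in biosamples 1 and 2, at the same position, chr18:36997696-36997845. Pcdha11 (60) and Pcdha12 (59) followed in biosample 1 and had no peak in biosample 2. The other alpha genes with a peak in biosample 1 were Pcdha6 (47), Pcdha10 (38), Pcdha3 (33), Pcdha4 (28) and Pcdhac1 (24). Only Pcdha9 lay above the middle of the list. Pcdha1, Pcdha2, Pcdha5, Pcdha7, Pcdha8 and Pcdhac2 had no promoter peak in either list. All 4 genes from Pcdha9 to Pcdha12, at the downstream end of the repeated exons, had a peak in biosample 1, against 3 of the 8 before them.

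The beta genes, which encode proteins without the shared intracellular end, had the highest share of genes with a peak in biosample 1, though their strength ranged widely, from the 9.13 to the 89.6 percentile. Pcdhb16 was the strongest, with a score of 123 (percentile 89.6) at chr18:37477756-37477905 in biosample 1 and 47 (percentile 71.5) in biosample 2. Pcdhb15, the gene just before it, had scores of 101 and 42 (percentiles 77.6 and 64.9). Pcdhb14 had 105 and 28 (percentiles 80.0 and 39.9), and Pcdhb13 had 90 and 25 (percentiles 70.6 and 33.1). These neighbours, in an unbroken row, held the 4 highest mean percentiles among the 10 beta genes in both lists.

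The other beta genes found in both lists were weaker in biosample 2, where all of them lay in the lower part of the list. Pcdhb5 had scores of 73 and 23 in biosamples 1 and 2. Pcdhb8 had 84 and 18, and Pcdhb2 had 75 and 17. Pcdhb11 had 65 and 19, Pcdhb10 had 67 and 16, and Pcdhb21 had 70 and 11, the lowest score of any member in biosample 2 (percentile 2.82). Another 10 beta genes had a peak in biosample 1 alone, with scores from 36 at Pcdhb18 to 79 at Pcdhb6. Pcdhb1 and Pcdhb17 had none in either list.

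In the gamma array, genes with and without a promoter peak were mixed, with Pcdhga8, Pcdhgb5, Pcdhga9 and Pcdhgb6 as 4 consecutive genes without one. Pcdhga10 had a score of 118 (percentile 87.2) at chr18:37746936-37747085 in biosample 1 and 37 (percentile 57.3) in biosample 2. Pcdhgb4 had 102 and 41 (percentiles 78.2 and 63.5), the second highest percentile among gamma genes in biosample 2. Pcdhga1, the first gene of the array, had 112 and 35 (percentiles 84.0 and 53.8). Pcdhga6 had 95 and 29, and Pcdhga3 had 79 and 19. Pcdhgb7 (47), Pcdhga4 (46), Pcdhga12 (43) and Pcdhgb2 (42) had weak peaks in biosample 1 alone. Pcdhga2, Pcdhgb1, Pcdhga5, Pcdhga7, Pcdhga8, Pcdhgb5, Pcdhga9, Pcdhgb6 and Pcdhga11 had no promoter peak in either list. Of the gamma-A genes 4 of 12, and of the gamma-B genes 1 of 6, were found in both lists. The pseudogene Pcdhgb8 had a peak in both lists too, with scores of 65 and 12.

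The 5 C-type genes differed most among themselves. Pcdhgc3 had the strongest promoter of all members, with a score of 147 (percentile 99.5) at chr18:37806256-37806405 in biosample 1 and 75 (percentile 93.0) at chr18:37806236-37806385 in biosample 2. It was the only member whose promoter peak was above the median of all protein-coding genes in both lists. Its hotspot was also the widest of the members, at 3025 bp and 2762 bp, where the median member hotspot was 323 bp in biosample 1 and 201 bp in biosample 2. Pcdhgc5 had a score of 55 and Pcdhac1 one of 24, both in biosample 1 alone. Pcdhac2 and Pcdhgc4 had no peak.

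Inside the Pcdhgc3 variable exon a row of further peaks followed. The peaks at chr18:37807456-37807605 and chr18:37807956-37808105 had scores of 94 and 110 in biosample 1 and met peaks of 23 and 33 in biosample 2. Another at chr18:37808196-37808345, with a score of 107, was in biosample 1 alone. The non-coding RNA BC037039 has an annotated start within 1 kb of these 3 peaks, and DNase cuts do not tell the strand of a start. Of the variable-exon peaks more than 1 kb from any member start, those of Pcdhgc3 were the only ones shared between the lists.

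Hotspots gave the same counts, but every peak over the cluster and its flanks overlapped a hotspot of its own list. Some hotspots at member promoters were narrower than the 150 bp of a peak, down to 79 bp in biosample 1 and 70 bp in biosample 2. The match is therefore not independent of the peaks. A hotspot reached the promoter window of 39 members in biosample 1 and 17 in biosample 2, and 17 had one in both, beside 52.2% of all protein-coding genes. The authors' −log10 q value of a hotspot stops at 100. That cap was reached by 28 of 39 member hotspots in biosample 1 and by 6 of 17 in biosample 2, those of Pcdhb15, Pcdhb16, Pcdhga6, Pcdhgb4, Pcdhga10 and Pcdhgc3. The lowest values were 1.76 at Pcdhgb2 in biosample 1 and 1.61 at Pcdhb10 in biosample 2.

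Which members were found again in biosample 2 went with their score in biosample 1. Members in both lists had scores from 65 to 147 there (median 90), and members in biosample 1 alone from 24 to 79 (median 51). The ranges overlapped at Pcdhb4 (74), Pcdhb6 (79) and Pcdhb7 (70), which had no peak in biosample 2. With a score under 50 in biosample 1, 0 of 11 members were found in biosample 2, beside 3.03% of all protein-coding genes in that band. From 50 to 74 it was 5 of 15 members (33.3%) beside 11.2%, from 75 to 99 it was 5 of 6 (83.3%) beside 51.7%, and from 100 it was 7 of 7 beside 97.6%. In the 3 bands from 50 up, the share of members found again was at or above that of all genes. Over the 17 members in both lists the percentiles had a Spearman correlation of 0.88, as a description of points that share both libraries and neighbouring positions.

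The promoter peaks sat just before the annotated starts. The centre of the strongest peak lay at a median of -33.5 bp from the nearest start in biosample 1 and -28.5 bp in biosample 2, beside -52.5 bp and -55.5 bp over all protein-coding genes. In biosample 1, 31 of 39 member peaks (79.5%) were centred within 250 bp before the start, beside 57.3%. In biosample 2 it was 16 of 17 (94.1%), beside 64.1%. The peaks of the 17 shared members moved by at most 60 bp between the lists, and 5 had the same coordinates in both. Beta genes were the most uniform, from -169.5 to 49.5 bp in biosample 1.

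The promoter windows of the arrays differ in base composition. CpG-rich promoters were those with a CpG ratio (CpG dinucleotides observed, divided by those expected from the C and G content) of at least 0.6 in the 1000 bp around the most upstream start. This held for 12 of 14 alpha, 0 of 22 beta and 10 of 21 gamma promoters, with median ratios of 0.68, 0.38 and 0.60, beside 46.6% of all protein-coding genes. Of the 22 CpG-rich members 4 (18.2%) had a peak in both lists, beside 80.3% of CpG-rich protein-coding genes. The class sets no limit on GC content, and the 2 groups differ in it. The median GC content was 46.15% in the CpG-rich members and 61.3% in CpG-rich protein-coding genes. Of the 35 CpG-poor members 13 (37.1%) had one, beside 27.1% of CpG-poor genes. By array this was 10 of 22 beta, 3 of 11 gamma and 0 of 2 alpha genes. Among CpG-rich promoters it was 1 of 12 in alpha and 3 of 10 in gamma. In the list of biosample 1, 20 of 22 beta and 7 of 11 CpG-poor gamma genes had a peak, beside 41.7% of CpG-poor genes. There 6 of 12 CpG-rich alpha and 4 of 10 CpG-rich gamma genes had one, beside 86.6% of CpG-rich genes. Over all 57 members the percentile in biosample 1, with no peak as the lowest, had a Spearman correlation of -0.36 with the CpG ratio. Within the arrays it was -0.34 for alpha, 0.15 for beta and 0.01 for gamma.

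Related variable exons share sequence, and reads that fit several places may not have been counted by the authors, so the uniqueness of each promoter window was given beside its peak. Of all words of 36 bases in a window, a median of 80.2% occurred once in the genome for alpha, 100% for beta and 99.0% for gamma. In alpha the 6 genes without a peak had a median of 82.2% and the 8 with one 78.2%. Single genes went both ways. Pcdhac2 and Pcdha8, without a peak, had 100% and 92.5%, and Pcdhgb4, accessible in both lists, had 73.0%. Pcdhac1, with a peak in biosample 1, had 100%, and Pcdhgb5 and Pcdhgb6, without one, had 79.5% and 83.2%. In gamma the 10 genes without a peak had a median of 98.3% and the 11 with one 99.4%. The part of uniqueness in the difference between the arrays was not tested.

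CTCF matches were looked for because CTCF is known at these genes. The window was 200 bp around each peak centre, and the CTCF consensus was searched without mismatch on both strands. Of 58 biosample 1 peaks within 1 kb of a member start, 4 (6.90%) had a match, beside 3.86% of the whole list and 1.44% of its peaks near any protein-coding start. None of the 21 such peaks in biosample 2 did, beside 7.59% of the whole list and 2.05% of its peaks near any protein-coding start, a share at which 0 of 21 is near the background. All 4 matches were on the plus strand, the direction of transcription. They lay at Pcdha4, Pcdha6, Pcdha12 and Pcdhb8. With 1 mismatch allowed, the share was 17.2% in biosample 1, beside 17.1% of the whole list, and 4.76% in biosample 2, beside 22.1%. By array it was 33.3% for alpha, 16.7% for beta and 6.25% for gamma start peaks in biosample 1. The alpha start peaks with such a match, at Pcdha4, Pcdha6, Pcdha10 and Pcdha12, had it on the plus strand. Strand differed when whole gene windows within 500 bp of the start were searched, whether in a peak or not. With 1 mismatch, 11 of 14 alpha genes (78.6%) had a match there against the direction of transcription, beside 16.2% of all genes. Along the direction of transcription 2 (14.3%) had one, beside 16.3%. Within 500 bp of the most upstream start, a forward match without mismatch was present at 1 member (1.75%), beside 1.15% of all genes.

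The 3 alpha peaks with a match were not at the start but inside the variable exon. Pcdha4, Pcdha6, Pcdha10 and Pcdha12 each had, beside the peak at the start, a peak centred 561.5 to 622.5 bp after it, with scores of 27, 47, 38 and 48 in biosample 1. In Pcdha6 and Pcdha10 this exonic peak was stronger than that at the start. Over the first 2500 bp of all alpha genes, 6 of 14 (42.9%) had a plus-strand match, beside 1.95% of all protein-coding genes. These matches lay 542 to 586 bp after the start, in Pcdha1, Pcdha4, Pcdha6, Pcdha7, Pcdha8 and Pcdha12. The 3 in Pcdha1, Pcdha7 and Pcdha8 lay in no peak, which follows from these genes having no peak within 1000 bp of a start.

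Beta genes had matches at another place and on the other strand. Of 22 beta genes, 11 had a minus-strand match in the first 2500 bp, beside 2.19% of all protein-coding genes, and 1 (4.55%) had a plus-strand match. The minus-strand matches lay 2277 to 2418 bp after the start, far into the variable exon. Of these, 4 lay in a biosample 1 peak, at Pcdhb3 (score 38), Pcdhb10 (50, with a second peak of 45 that overlaps it), Pcdhb14 (64) and Pcdhb15 (40). None lay in a peak of biosample 2. In gamma a minus-strand match was found at Pcdhga8 alone, 2264 bp after the start and in a peak of score 50, where the promoter itself had none. Genes of an array are related copies of each other, so matches at like positions are not separate observations, and a match is not evidence of bound CTCF.

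**Figure D3:**
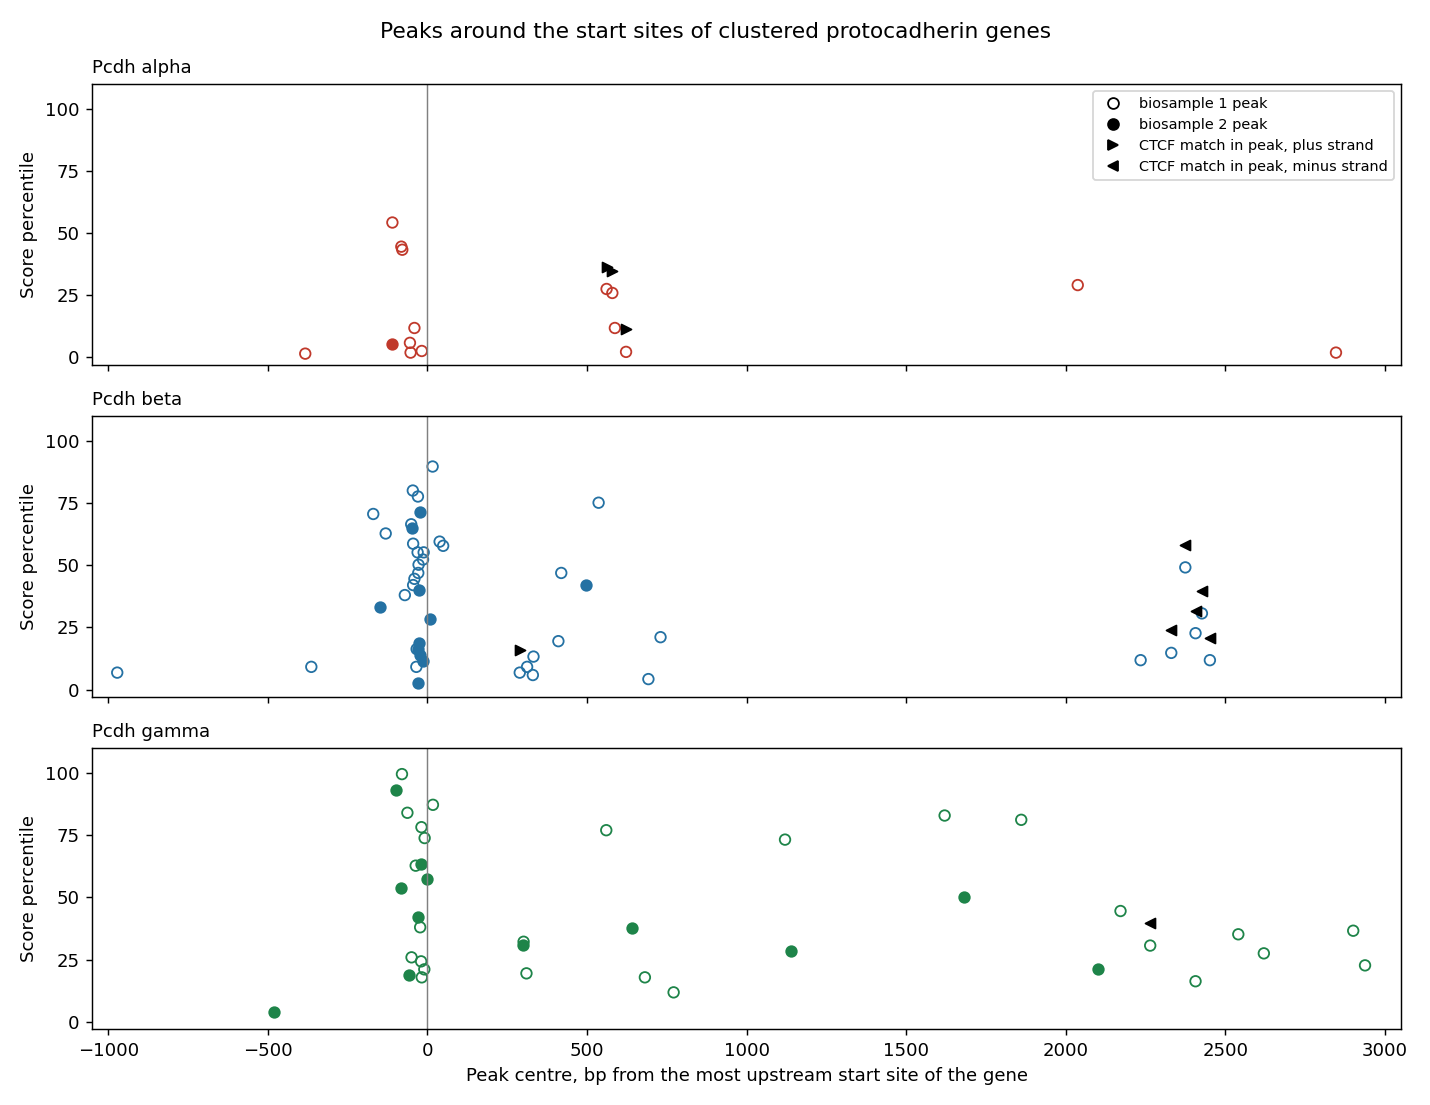
Peaks of biosample 1 (open circles) and biosample 2 (filled circles) from 1000 bp before to 3000 bp after the most upstream start of each member, one panel per array, with the centre of the peak in bp on the horizontal axis and its score percentile on the vertical axis. Triangles above a peak mark a CTCF consensus match and point right for the plus and left for the minus strand. In all panels peaks gather at the start. In biosample 1, 4 alpha genes have a further peak at 561.5 to 622.5 bp, and 3 of these peaks have a plus-strand match. There 4 beta genes have 6 peaks at 2234.5 to 2451.5 bp, of which 5 have a minus-strand match. The gamma peaks between 1120.5 and 2100.5 bp belong to Pcdhgc3.

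A short core, CGCT, is part of the conserved element described at these promoters. In the 250 bp before the most upstream start it was present in the direction of transcription in 12 of 14 alpha, 19 of 22 beta and 19 of 21 gamma genes. Over all members this was 50 of 57 (87.7%), beside 44.5% of all protein-coding genes, 68.7% of CpG-rich and 23.4% of CpG-poor ones. On the opposite strand it was present in 36.8% of members beside 44.5% of all genes. Its median position from the start was -63 bp in members and -108 bp over all genes. It did not separate the members by accessibility: 16 of 17 genes with a peak in both lists and 16 of 18 with a peak in neither had it. Pcdha10, Pcdhac2, Pcdhb13, Pcdhb17, Pcdhb22, Pcdhga12 and Pcdhgc5 did not.

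Between the promoters, peaks were gathered in a few places. The cluster of 911690 bp held 130 peaks in biosample 1 (14.3 per 100 kb) and 41 in biosample 2 (4.50 per 100 kb), beside 10.9 and 3.57 per 100 kb over chromosomes 1 to 19, X and Y. The 99 kb before Pcdha1 held 2 and 4 peaks, none above the 25.9 percentile. The downstream 100 kb, nearly all of it inside the formin gene Diaph1, held 31 and 15, or 31.0 and 15.0 per 100 kb, with median percentiles of 74.4 and 86.4. The variable segment of alpha had 13.8 and 1.06 peaks per 100 kb, beta 14.2 and 4.22, and the variable segment of gamma 16.6 and 5.52.

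**Figure D4:**
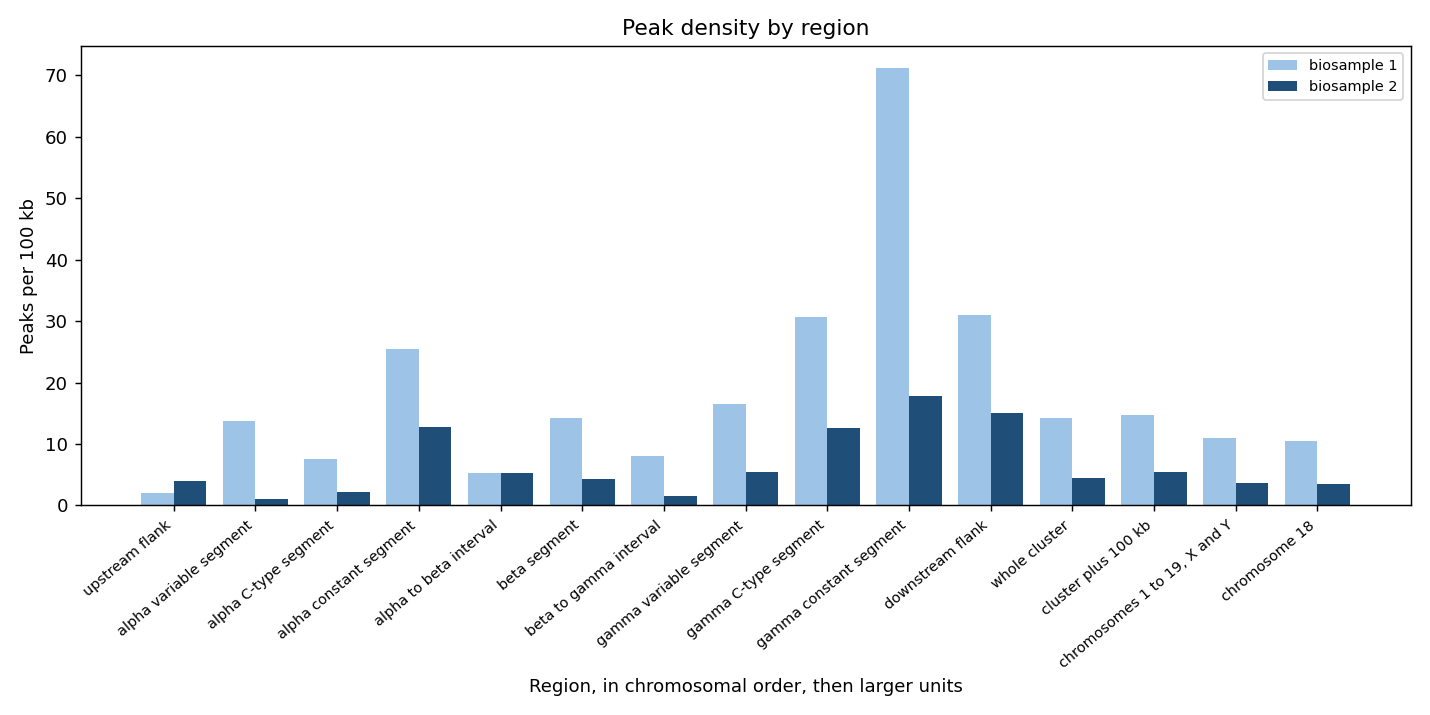
DNase peaks per 100 kb (vertical axis, from 0) in each region of the cluster in chromosomal order and, on the right, in the whole cluster, the cluster with 100 kb on either side, all chromosomes and chromosome 18. Light bars are biosample 1 and dark bars biosample 2. By peaks the gamma constant segment is highest at 71.2 and 17.8 per 100 kb, the latter from 3 peaks in 1 hotspot, and the alpha variable segment has 1.06 in biosample 2.

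The constant exons of each array held 1 peak, which is not few for stretches so short. The alpha constant exons, at chr18:37156155-37156213, chr18:37159265-37159353 and chr18:37184946-37187657, held 1 peak, in the third exon at chr18:37186876-37187025 (score 76, biosample 1 alone). The gamma constant exons, at chr18:37825021-37825079, chr18:37833265-37833353 and chr18:37839903-37841873, held 1 peak, also in the third, at chr18:37841396-37841545 (score 58, biosample 1 alone). The whole gamma constant segment held 12 peaks in biosample 1, the highest density of the regions at 71.2 per 100 kb. In biosample 2 it held 3 peaks, all in 1 hotspot. Counted by hotspots it had 53.4 per 100 kb in biosample 1, again the highest, but 5.93 in biosample 2, below the 12.7 of the alpha constant segment.

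The strongest peaks of the constant segments lay in the last intron of each array. Between gamma constant exons 2 and 3, 3 peaks within 1 kb had scores of 135, 128 and 134 in biosample 1, at chr18:37835576-37835725, chr18:37836076-37836225 and chr18:37836436-37836585. In biosample 2 they had 60, 52 and 56. Between alpha constant exons 2 and 3 the peak at chr18:37172356-37172505 had 115 and met one of 51 in biosample 2, within 1 kb of the start of the non-coding gene Gm38097. In the same intron the peaks at chr18:37177816-37177965 (81) and chr18:37178536-37178685 (113), near the start of Gm10544, met weaker ones of 20 and 22.

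Before the alpha constant exons, between Pcdhac2 and the first of them, a group of 8 biosample 1 peaks spanned less than 7 kb. Its strongest, at chr18:37149376-37149525 (125), chr18:37150616-37150765 (98) and chr18:37154256-37154405 (101), met biosample 2 peaks of 50, 25 and 43. In the interval from alpha to beta, peaks at chr18:37189116-37189265 (115), chr18:37217396-37217545 (82) and chr18:37218296-37218445 (111) met peaks of 36, 15 and 34. The one at chr18:37217396-37217545 had a minus-strand CTCF match. These distal sites were therefore present in both lists beside an alpha array of which only Pcdha9 was.

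**Figure D5:**
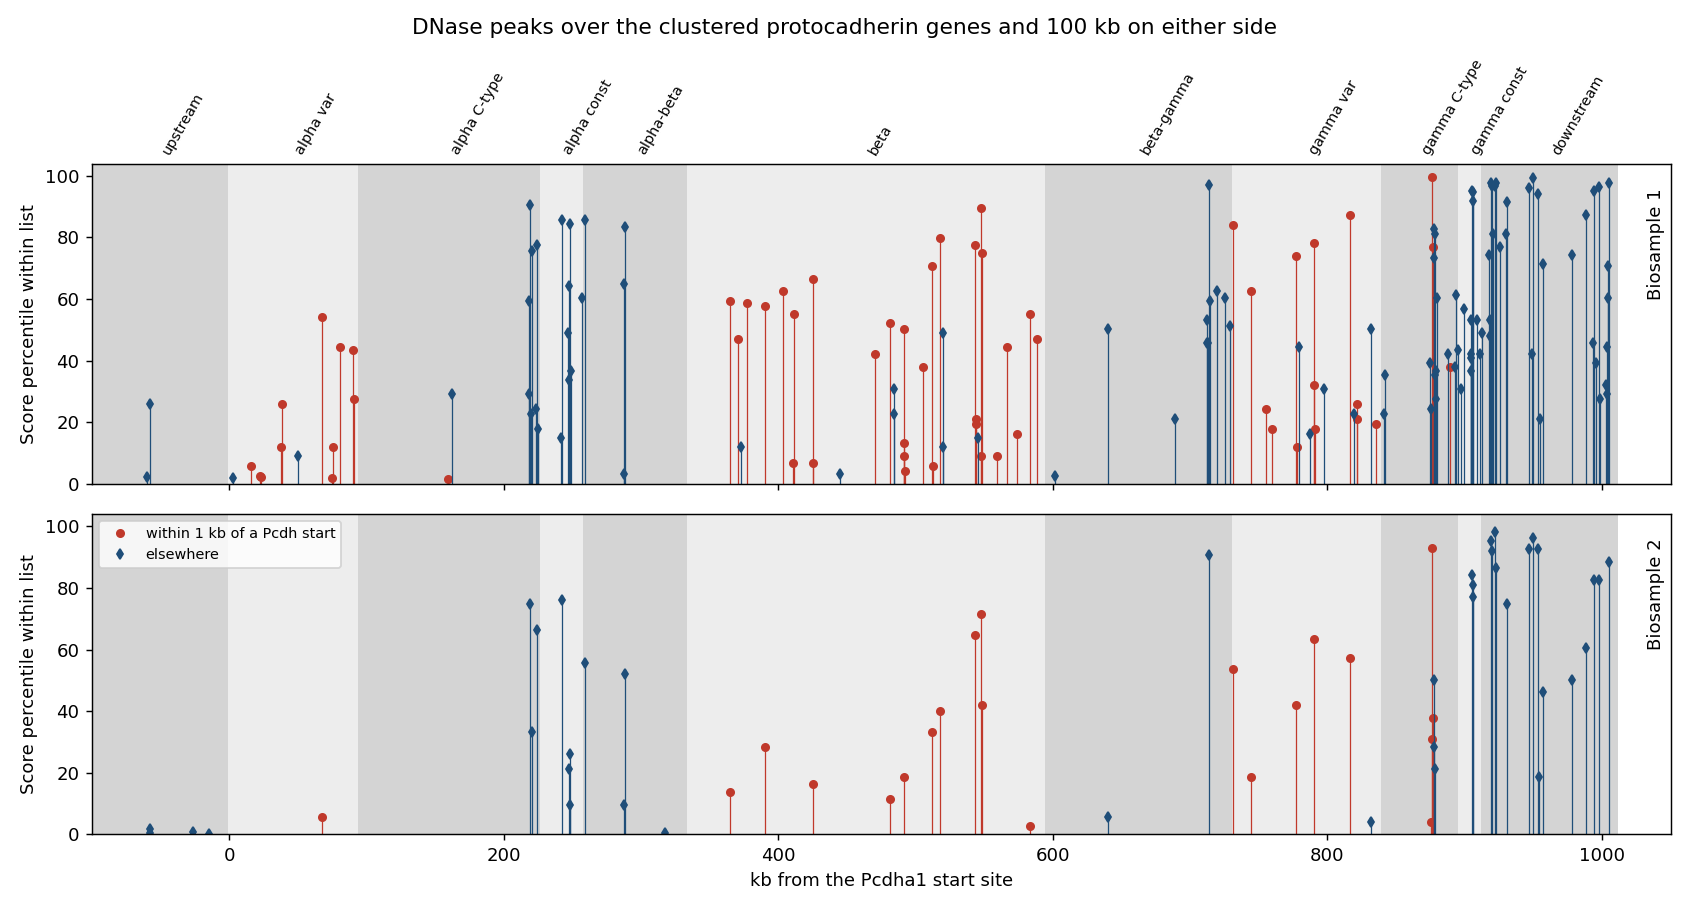
All DNase peaks over the cluster and 100 kb on either side, biosample 1 above and biosample 2 below, with the distance from the Pcdha1 start in kb on the horizontal axis and the score percentile within the list on the vertical axis. Grey bands are the regions of the density plot, circles are peaks within 1 kb of a member start and diamonds all other peaks. Strong diamonds gather at 219 to 288 kb around the alpha constant exons, at 905 to 906 kb in the last gamma constant intron and downstream of it, while the alpha variable segment holds 1 peak in biosample 2.

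The strongest peaks outside member promoters lay beyond the gamma constant exons, in introns of Diaph1 or at its start. In biosample 1 the highest scores were 146 at chr18:37880256-37880405, 141 at chr18:37849596-37849745, chr18:37852756-37852905 and the Diaph1 start at chr18:37935476-37935625, and 140 at the start of Taf7, a subunit gene of the general transcription factor TFIID between the beta and gamma arrays (chr18:37644156-37644305). In biosample 2 they were 92 at chr18:37852196-37852345, 84 at chr18:37880236-37880385, 81 at chr18:37849616-37849765 and 74 at chr18:37877356-37877505 and chr18:37883596-37883745. The Taf7 start had 70 in biosample 2 and the Diaph1 start 66. The Diaph1 peaks at chr18:37883616-37883765 and chr18:37887096-37887245 had minus-strand CTCF matches. Enhancers of the arrays are known after the alpha and the gamma constant exons, but their coordinates were not used here, so none of these peaks was assigned to a named enhancer.

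Away from the arrays' own promoters, the other protein-coding starts of the interval were few. Slc25a2, a mitochondrial carrier gene next to Taf7, had no promoter peak, nor had the read-through models Gm37013 and Gm37388. The start of Gm42416, another such model, lies close to that of Pcdha4, and its promoter peak (score 28, biosample 1 alone) is the one given for Pcdha4.

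Of the 130 cluster peaks in biosample 1, 36 overlapped a peak of biosample 2 (27.7%, with a 95% Wilson interval of 20.7 to 35.9%), beside 30.4% of the whole list and 21.4% of peaks of the same score decile. Of the 41 cluster peaks in biosample 2, 36 overlapped one of biosample 1 (87.8%, 74.5 to 94.7%), beside 93.5% of the whole list and 91.2% of the same decile. For peaks within 1 kb of a member start the shares were 32.8% of 58, beside 18.9% of peaks of the same score decile in biosample 1, and 90.5% of 21, beside 91.3% in biosample 2. In biosample 1 the interval of the cluster share included the 21.4% of peaks of like score. The share at member starts was above that of peaks of like score, but no interval was computed for it. Over the cluster with its flanks, 9 biosample 2 peaks had no partner. Of these, 4 were weak ones in the upstream flank and between alpha and beta, with scores of 4 to 10, such as chr18:36903676-36903825 (8) and chr18:37247436-37247585 (6). Another 3 lay at Pcdhgc3, beside its main peak.

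The genes that regulate the arrays, or belong to the same family elsewhere, were compared by fixed lists. All 11 CTCF and cohesin genes were open at the promoter in biosample 1 and biosample 2 alike, beside 51.9% of all genes, with biosample 2 percentiles from 69.1 at Ctcf to 97.6 at Smc1a. Of these promoters 10 were CpG-rich, and among CpG-rich protein-coding genes the share in both lists was 80.3%. Of 11 genes of silencing factors acting on the clusters or on DNA methylation, 10 had a peak in both, among them Smchd1 (scores 136 and 64) and Setdb1 (135 and 69). CpG-rich promoters made up 8 of these 11. Dnmt3b, a de novo DNA methyltransferase, had one of score 85 in biosample 1 alone. Of 12 non-clustered protocadherin genes, 5 had a peak in both lists: Pcdh7 (142 and 67), Pcdh18 (137 and 67), Pcdh19 (133 and 54), Pcdh1 (128 and 42) and Pcdh9 (127 and 33). Pcdh15 and Pcdh17 had one in biosample 1 alone, and Pcdh8, Pcdh10, Pcdh11x, Pcdh12 and Pcdh20 had none. Of 7 other cadherin genes, Cdh2, Cdh5, Cdh11 and Cdh13 had a peak in both lists and Cdh1, Cdh3 and Cdh4 in neither. In biosample 1 the 5 non-clustered protocadherin genes found in both lists had higher scores than every clustered member but Pcdhgc3. In biosample 2 that did not hold for Pcdh9 and Pcdh1, which lay below Pcdhb16 (47) there.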

How the data were processed

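DNase-seq peaks and hotspots of 2 biosamples of 3T3-L1 were used as deposited, on build mm10 per the labels. The deposited peak score (scale undefined) and the deposited hotspot −log10 q value, capped at 100, came from lists that merged the 2 technical libraries of a biosample. The aligner and the peak caller are not given in the sources used here. Start sites (54471) were those of protein-coding transcripts in GENCODE M21. CpG ratios, words of 36 and 50 bases and CTCF matches came from the same assembly, and RefSeq starts lay within 500 bp of all 57 members. Computations used Python 3.11.15, numpy 2.4.6, numba and matplotlib, and the routines were tested on simulated data. Intervals are Wilson 95% intervals and cover counting error only.

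The members and lists were chosen with earlier results of these data known. Named were the members with a peak in both lists, those with one in neither, the C-type genes, the 3 strongest of each array, the 5 strongest peaks of each list away from member promoters and, in the fixed lists, the genes lacking a peak in either list and the 3 strongest. Other members and peaks were named after their values were seen. The CGCT core and the matches after the start were also searched after the peaks had been seen. Sequences of chromosome 18 are not printed.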

Additional observations from a re-analysis of the deposited data

How the results depend on the processing

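No paired analysis was possible because the libraries of a biosample were merged into 1 list, and for the same reason no library could be left out. Of 87 alternatives to 23 values, 17 moved the value by the margins used and 70 did not: a factor of 1.5 for counts and densities, the Wilson interval for shares and the middle 50% of the members for median percentiles. Within these margins still lie a change of gamma from 6 to 4 and of the biosample 2 CTCF share from 0 to 4.76%. Promoter windows of 500 and 2000 bp, the most upstream start alone and hotspots in place of peaks left the member counts at 17, 39 and 17, while the share of all genes in both lists ran from 48.4 to 55.6%. The hotspot setting is not an independent check, since the peaks of the cluster overlapped hotspots of the same list.

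Keeping the stronger 50% of each list by score moved most values. Members with a promoter peak became 6 in both lists, 20 in biosample 1 and 6 in biosample 2, beside 46.3, 56.2 and 46.3% of all genes. Alpha became 1 in biosample 1, 0 in biosample 2 and 0 in both; beta became 13, 2 and 2; gamma became 6, 4 and 4, above beta in biosample 2 and in both lists. The median percentile in biosample 2 became 64.2, the density with flanks 6.57 and 2.61 peaks per 100 kb, and the share of biosample 2 cluster peaks met in biosample 1 100%. Such a cut raises a median percentile and lowers a density by itself, so these 2 kinds of move follow at least in part from the setting. Among CpG-rich promoters only, 4 of 22 members had a peak in both lists, a count from a smaller set than the 17 of 57. Allowing 1 mismatch took the CTCF share at member starts in biosample 1 to 17.2%. A CpG ratio of at least 0.75 left 2 CpG-rich members. The weak peaks of the alpha array rest on the authors' threshold, and its strength cannot be read without the depth.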
